A study of Mus musculus with 8 samples.

Results

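The genes described here are the transcriptional regulators Yap1 and Tead1 together with 8 genes known as targets of the YAP protein, namely Ccn1, Ccn2, Ankrd1, Amotl1, Amotl2, Ajuba, Lats2 and Axl. They are 10 of the 25239 gene symbols counted in liver RNA, and all 10 passed the filter on low counts. The set was chosen by the measured difference of Ccn1 between control and Smo-KO livers, which had stood out among all genes in these same libraries, and was filled with the factors and targets that belong with it. The levels of the 10 genes in control and Smo-KO livers are therefore given as a description, without a test.

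RNA-seq was carried out on whole liver of 8 adult male mice, 4 in each group. All mice carried the floxed Smo allele on both chromosomes (Smo fl/fl) on a C57Bl6/J background, and all were fed the CDA-HFD, a choline-deficient, amino acid-defined high-fat diet that produces steatohepatitis, for 6 weeks. In the final week they received AAV8-TBG-Luciferase (control, whose genotype the labels give as WT) or AAV8-TBG-Cre (Smo-KO) by tail vein. The TBG promoter is active in hepatocytes, so the deletion was directed at hepatocytes while the other liver cells kept the gene, and the RNA came from all of them. In whole liver, fewer cells of a type and less RNA per cell cannot be told apart. Numbers 1 to 4 in each group name the mice. The labels do not say whether the numbers follow an order or mark anything shared between the groups. Libraries held 9177277, 9394970, 9891102 and 9999732 reads on genes in control livers, and 9543675, 9367795, 8203299 and 9445427 in Smo-KO livers (exact permutation test, two-sided p = 0.257). Levels are given as CPM, the counts of a gene relative to the TMM-scaled size of its library, and a gene with 3 reads stood at 0.297 to 0.366 CPM in these libraries.

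Hippo signaling is a kinase cascade in which MST kinases activate LATS kinases, and LATS kinases phosphorylate YAP and its relative TAZ so that they stay in the cytoplasm. When the cascade is inactive, YAP enters the nucleus and binds TEAD proteins, which carry it to DNA and switch on target genes. In the liver this pathway is known for its control of organ size, hepatocyte identity and regeneration. YAP is controlled mainly through its phosphorylation and location, which RNA levels do not measure.

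TEAD proteins bind the letters GGAATG, which read CATTCC on the opposite strand. The 250 bases upstream of the annotated start were searched for them on both strands in the RefSeq promoter set (GRCm38.p6), which held 8 of the 10 genes, all but Tead1 and Ccn2. The motif was present in 6 of these 8, and in 12.6% of all 32851 promoters searched. Ccn1 and Amotl2 each carry 1 match, as do Yap1 and Axl. The upstream sequences of Ccn1 and Amotl2, whose levels differed most in proportion to their standard errors, are printed here in full. They lie at chr3:145649986-145650235 (minus strand) and chr9:102717554-102717803 (plus strand), are written 5′ to 3′ in the direction of transcription, and show the match in capitals. The Amotl2 stretch is upstream of a RefSeq start but lies inside the span that GENCODE gives for the gene.
Ccn1: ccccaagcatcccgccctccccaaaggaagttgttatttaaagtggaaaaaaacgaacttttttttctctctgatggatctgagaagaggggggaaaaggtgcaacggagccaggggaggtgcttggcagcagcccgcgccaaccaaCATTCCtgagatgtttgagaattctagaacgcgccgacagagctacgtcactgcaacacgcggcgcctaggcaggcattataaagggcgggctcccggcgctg
Amotl2: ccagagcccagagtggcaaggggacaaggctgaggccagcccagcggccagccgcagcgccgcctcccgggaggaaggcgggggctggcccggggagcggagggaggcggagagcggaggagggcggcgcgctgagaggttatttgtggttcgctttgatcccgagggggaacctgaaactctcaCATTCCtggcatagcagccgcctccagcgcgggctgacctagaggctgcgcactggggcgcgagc

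The first letter of the match stood 103 bases before the start in Ccn1 and 65 bases before it in Amotl2. Shorter stretches around the match in 4 further genes are given for comparison, with the same capitals and direction. They come from chr9:8004720-8004749 for Yap1, chr7:25788949-25788978 for Axl, chr14:54577830-54577859 for Ajuba and chr19:36120037-36120066 for Ankrd1, all on the minus strand.
Yap1: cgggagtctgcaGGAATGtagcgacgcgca
Axl: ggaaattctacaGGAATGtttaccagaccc
Ajuba: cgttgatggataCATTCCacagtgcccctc
Ankrd1: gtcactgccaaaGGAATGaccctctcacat
These matches began 141, 233, 186 and 210 bases before the start. Ajuba and Ankrd1 each held a further match, 164 and 123 bases before it, while Amotl1 held none, nor did Lats2, for which the set has 2 promoters. Neither the CArG box, which the serum response factor binds, nor the AP-1 letters TGANTCA occurred in any of the 9 windows of these 8 genes, against 1.47% and 6.75% of all promoters. The letters TATAAA, sought on both strands, occurred in Ccn1 alone of the 8, 25 bases before its start, against 12.4% of all promoters. All distances are from the RefSeq starts. The windows of Amotl2, Amotl1, Ankrd1 and Lats2 lie inside the spans that GENCODE gives for these genes. The sequence upstream of their outermost GENCODE starts was not searched. A match of letters describes the sequence and does not show binding.

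Smo itself, the membrane protein that relays the Hedgehog signal, was counted at 8.17, 8.49, 8.74 and 8.21 CPM in control livers and 5.67, 3.93, 4.27 and 4.37 CPM in Smo-KO livers. Every Smo-KO liver was below every control liver, so the labels and the targeted gene pointed the same way. The difference was −0.88 (SE 0.16) on the log2 scale (edgeR quasi-likelihood test, adjusted p = 0.0957; exact permutation test on CPM, two-sided p = 0.0286, the smallest that 4 against 4 allows). Leaving out Smo-KO mouse 1 gave an adjusted p of 0.0266.

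Gene positions are those of GENCODE on GRCm38. Yap1 (chr9:7931999-8004596, minus strand), the coactivator at the end of the cascade, was at 86.0, 102, 95.9 and 88.3 CPM in control livers and at 83.1, 92.4, 77.6 and 81.8 CPM in Smo-KO livers. Mean levels were 92.9 ± 7.16 and 83.7 ± 6.25 CPM (SD, n = 4 each), a log2 difference of −0.15 (SE 0.09). All 4 Smo-KO livers were below the control mean and 3 of them were below the lowest control, but mouse 2 lay inside the control range. Yap1 also varied little from liver to liver. The SD of its log2 CPM within groups was 0.108, and the median over the 500 genes nearest to it in level was 0.145.

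Tead1 (chr7:112679318-112906807, plus strand), one of the DNA-binding partners of YAP, was at 16.3, 24.3, 20.8 and 19.1 CPM in control livers and at 21.3, 15.6, 17.3 and 16.7 CPM in Smo-KO livers. The means were 20.1 ± 3.34 and 17.7 ± 2.50 CPM (log2 difference −0.18, SE 0.14, ranging from −0.28 without Smo-KO mouse 1 to −0.08 without control mouse 2). The ranges overlapped at both ends, since control mouse 1 was among the low livers and Smo-KO mouse 1 was the second highest of all 8.

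Ccn1 (chr3:145646976-145649981, minus strand) encodes a secreted protein of the extracellular matrix that binds integrins and is widely used as a readout of YAP. It was counted at 68.7, 65.3, 35.9 and 34.6 CPM in control livers and at 36.8, 32.5, 23.7 and 21.5 CPM in Smo-KO livers. Control livers formed a high pair, mice 1 and 2, and a low pair, mice 3 and 4, and the low pair stood next to Smo-KO mice 1 and 2. The mean was 51.1 ± 18.4 CPM in control and 28.6 ± 7.23 CPM in Smo-KO livers (SD, n = 4 each), so that Smo-KO livers held 56.0% of the control level. The log2 difference was −0.83 (SE 0.24), and 0.709% of all 12977 genes tested had a difference as low or lower. All 4 Smo-KO livers were below the control mean and 3 were below the lowest control, while Smo-KO mouse 1 was above 2 of the controls. The gene received between 194 and 623 reads per liver, so counting error was small beside the spread between mice.

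How far Ccn1 differed depended on which control livers were counted. Without control mouse 1 the log2 difference was −0.66, and without control mouse 4 it was −0.98. Other scalings, filters and tools left it between −0.83 and −0.81. The difference of mean log2 CPM was −0.79 both before and after the trend of each liver on GC content and transcript length was taken out, a step added after seeing the data.

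Ccn2 (chr10:24595442-24598683, plus strand), the closest relative of Ccn1 and the other common readout of YAP, did not follow it between the groups. Control livers were at 11.8, 18.1, 10.3 and 14.1 CPM and Smo-KO livers at 13.3, 19.5, 13.4 and 9.81 CPM. The groups covered nearly the same range, with means of 13.6 ± 3.41 and 14.0 ± 4.04 CPM (log2 difference 0.04, SE 0.21). Of the exon bases of Ccn2, 23.2% are shared with the antisense gene Gm15270, and whether the counting used strand is not given in the sources used here. Part of the Ccn2 count may therefore belong to its neighbor.

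Ankrd1 (chr19:36111961-36120099, minus strand), a nuclear protein best known from muscle, was the lowest of the set, with 6 to 20 reads per liver. It stood at 1.02, 2.10, 0.596 and 1.68 CPM in control livers and at 0.928, 1.75, 1.10 and 0.640 CPM in Smo-KO livers. The means were 1.35 ± 0.670 and 1.10 ± 0.468 CPM (log2 difference −0.29, SE 0.42, ranging from −0.61 without Smo-KO mouse 2 to −0.00 without control mouse 2). Whether a difference of the size seen for Ccn1 could be detected at this depth and spread was not tested.

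Although Ccn2 and Ankrd1 did not separate the groups, they ordered the livers alike. In control livers both were highest in mouse 2, then 4, 1 and 3, and in Smo-KO livers both were highest in mouse 2 and lowest in mouse 4. Smo-KO mice 1 and 3 were not told apart, since Ankrd1 had 9 reads in each and Ccn2 stood at 13.3 and 13.4 CPM. The correlation of their group-centered log2 CPM over the 8 livers was r = 0.949 (rho = 0.952), the highest of the 45 pairs among the 10 genes. The pair was noticed after the values were seen. Ccn1 and Amotl2 came next (r = 0.766, rho = 0.786), and Amotl2 and Axl were the most opposed (r = −0.744, rho = −0.667). The median r over the 45 pairs was 0.248, and 28 pairs were above 0.

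Amotl2 (chr9:102716672-102733418, plus strand) and Amotl1 encode angiomotin-like proteins, which hold YAP at cell junctions and are themselves induced by it. Amotl2 was at 55.2, 46.4, 32.6 and 44.8 CPM in control livers and at 37.2, 40.2, 32.9 and 31.4 CPM in Smo-KO livers. All 4 Smo-KO livers were below the control mean, but the lowest but one of the 8 livers was control mouse 3. The means were 44.8 ± 9.32 and 35.5 ± 4.02 CPM (SD, n = 4 each), and Smo-KO livers held 79.2% of the control level (log2 difference −0.33, SE 0.14, and −0.22 without control mouse 1).

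Amotl1 (chr9:14541966-14645056, minus strand) showed no such order. It was at 9.75, 10.5, 9.74 and 8.51 CPM in control livers and at 14.0, 7.74, 9.02 and 11.1 CPM in Smo-KO livers. The highest and the lowest of the 8 livers were both Smo-KO (means 9.62 ± 0.821 and 10.5 ± 2.74 CPM, log2 difference 0.13, SE 0.18).

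Lats2 and Ajuba act back on the cascade, Lats2 as one of the kinases that phosphorylate YAP and Ajuba as a LIM protein that restrains LATS. Lats2 (chr14:57689662-57758388, minus strand) was at 17.9, 21.9, 20.3 and 20.3 CPM in control livers and at 18.2, 19.7, 24.1 and 18.8 CPM in Smo-KO livers. These were nearly equal on average, at 20.1 ± 1.64 and 20.2 ± 2.69 CPM (log2 difference 0.01, SE 0.12). Because 42.4% of the exon bases of Lats2 also belong to Gm49361, a gene on the same strand, its count depends on how shared reads were treated.

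Ajuba (chr14:54567472-54577558, minus strand) was at 20.4, 34.7, 38.1 and 29.97 CPM in control livers and at 36.5, 32.0, 41.0 and 23.7 CPM in Smo-KO livers. It varied about as much within each group as across both, with means of 30.8 ± 7.67 and 33.3 ± 7.39 CPM (log2 difference 0.11, SE 0.19). Axl (chr7:25757273-25788705, minus strand), a receptor tyrosine kinase that in liver is found mostly on non-parenchymal cells, was at 128, 149, 161 and 150 CPM in control livers and at 156, 124, 156 and 146 CPM in Smo-KO livers. Its means were almost the same, at 147 ± 13.8 and 146 ± 15.1 CPM (log2 difference −0.01, SE 0.10).

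**Figure D1:**
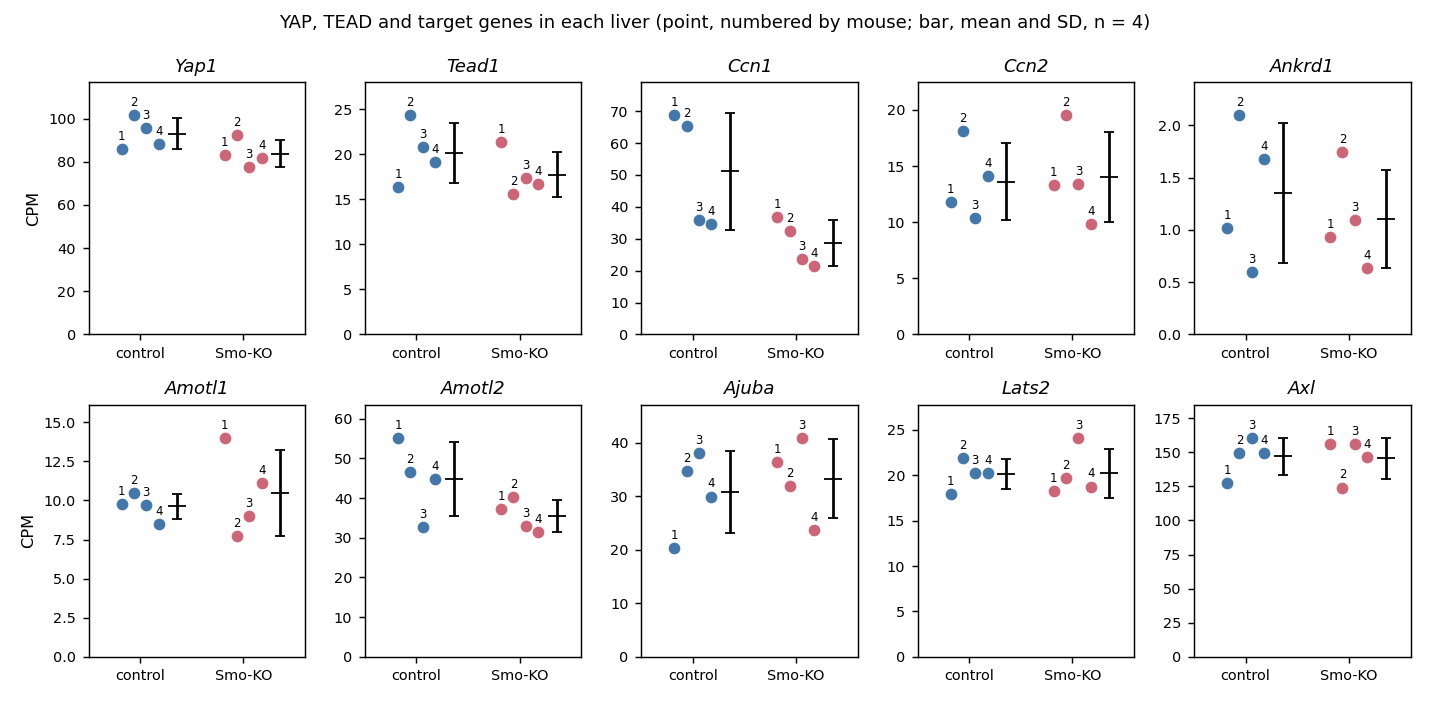
CPM of the 10 genes in each liver, 1 panel per gene with a linear axis from 0, blue for control and red for Smo-KO, points numbered by mouse and bars giving the mean and SD (n = 4). The 2 high control livers of Ccn1 sit at 68.7 and 65.3 CPM, and in every panel the ranges of the groups overlap.

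The ranges of control and Smo-KO livers overlapped in every one of the 10 genes, so that 0 of 10 had separate groups, beside 7.37% of all genes tested. The log2 difference was below 0 in 6 and above 0 in 4 of the 10, with a median of −0.08, beside −0.00 over all genes. Nothing is read from these counts, since the set was chosen on this comparison.

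**Figure D2:**
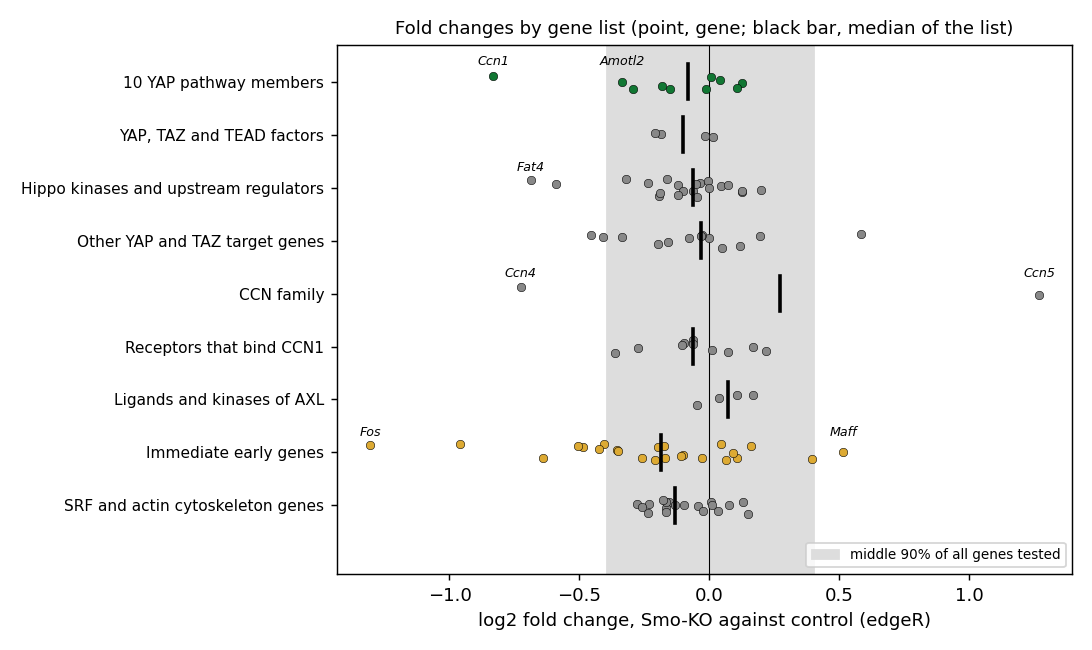
Log2 difference of Smo-KO from control livers (edgeR) for each gene, 1 row per gene list, with the median of the list as a bar and the middle 90% of all genes shaded. Ccn1, for whose difference in this comparison the set was chosen, is at −0.83, and the other 9 genes of the set run from −0.33 to 0.13.

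Levels of different genes were compared per kilobase of annotated exons, in control livers. Axl was the highest of the 10 at 29.2 ± 2.75 CPM per kb, and Ccn1 was next at 25.3 ± 9.12. Their control ranges overlapped, so they could not be placed apart. Set apart below Ccn1 came Yap1 at 10.04 ± 0.773, Ajuba at 8.44 ± 2.10, Amotl2 at 7.12 ± 1.48 and Ccn2 at 4.75 ± 1.19 CPM per kb, and each of these 4 overlapped its neighbor among them. Lats2 at 2.88 ± 0.236, Tead1 at 1.48 ± 0.246, Amotl1 at 0.956 ± 0.0815 and Ankrd1 at 0.467 ± 0.232 CPM per kb were each set apart from the gene above. Of the 2 genes most used as readouts of YAP, Ccn1 was thus above Ccn2 in every control liver. In Smo-KO livers Ccn1 was at 14.2 ± 3.58 CPM per kb. Counted over the longest transcript in place of all exons, Amotl2 (10.1) stood above Ajuba (9.06) and the other genes kept their places, but fewer neighbors were set apart. Yap1 was then at 17.6 ± 1.35 CPM per kb and its range overlapped that of Ccn1, as those of Ccn2 and Lats2 and of Amotl1 and Ankrd1 did. Yap1 stood apart from Amotl2, Lats2 from Tead1, and Tead1 from Amotl1 on this scale.

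**Figure D3:**
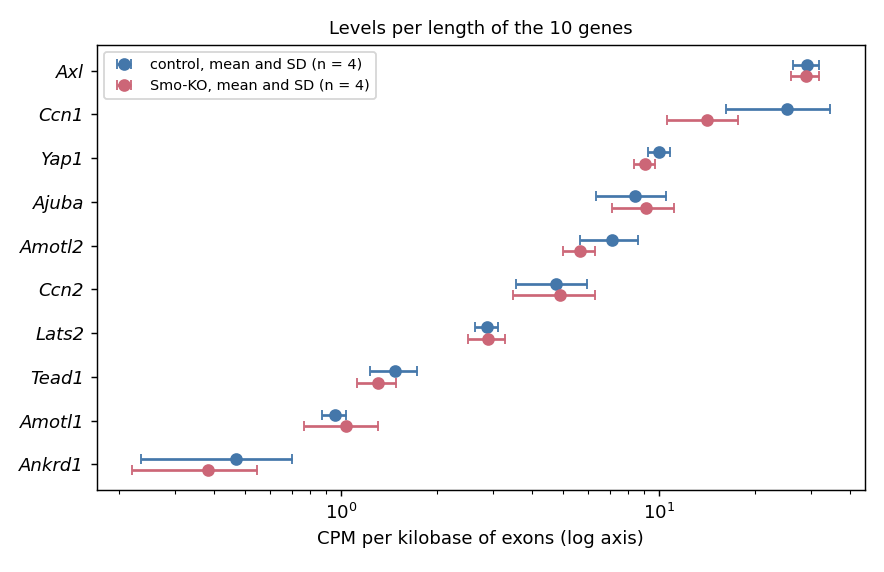
CPM per kilobase of exons of the 10 genes on a log axis, with points for the mean and bars for the SD (n = 4), blue for control and red for Smo-KO. Axl and Ccn1 lead at 29.2 and 25.3 CPM per kb in control livers and Ankrd1 is lowest at 0.467.

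Spread between livers of the same group differed widely over the 10 genes. The SD of log2 CPM within groups was 0.457 for Ccn1, where the 500 genes nearest in level had a median of 0.146, and 98.2% of them varied less. Ajuba (0.367, with 96.4% of its neighbors varying less) and Ccn2 (0.374, 93.2%) were also among the more variable genes of their level. Amotl2 (0.251, 88.6%), Ankrd1 (0.593, 83.2%), Amotl1 (0.272, 75.6%) and Tead1 (0.216, 74.8%) were less so. Axl (0.148, 55.4%), Lats2 (0.153, 38.2%) and Yap1 (0.108, 25.0%) varied like most genes of their level or less. The 8 targets therefore ran from Ccn1, more variable than nearly all genes of its level, to Lats2, less variable than most.

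The rest of the pathway was covered by 8 lists with 105 genes, of which 97 passed the filter on low counts. With edgeR's adjusted p, 0 of the 97 were called (0.0% of all genes), as with DESeq2, which called 163 genes in all, and with every other setting tried. At an unadjusted p under 0.05 there were 13, beside 13.8% of all genes tested. Of these, 3 were higher in Smo-KO, beside 6.7% of all genes, and 10 lower, beside 7.15%. The share of the 13 is close to that of all genes, while the share higher was smaller and the share lower was larger. The count ran from 7 without Smo-KO mouse 3 to 24 without Smo-KO mouse 1, and was 8 without control mouse 2. The count over all genes, 1797 of 12977, moved as well. It was 1244 of 13100 without Smo-KO mouse 3, 2332 of 13067 without Smo-KO mouse 1 and 1582 of 13077 without control mouse 2. The median log2 difference of the 97 was −0.10, with 31 above and 66 below 0. Over all genes it was −0.0008, with 6470 above and 6507 below 0. In 4 of the 97 (Actb, F3, Klf2 and Wwc1) the groups did not overlap, beside 7.37% of all genes.

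Of the other YAP, TAZ and TEAD factors, 4 of 6 were tested and 0 had an unadjusted p under 0.05, beside 13.8% of all genes. Wwtr1, which encodes TAZ and was the most abundant of them, had a log2 difference of 0.02 (SE 0.10), and its sign turned without control mouse 1 or Smo-KO mouse 2. Vgll4, which competes with YAP for TEAD, was at −0.21 (SE 0.15), and Tead2 at −0.19 (SE 0.21) (edgeR adjusted p = 0.969, 0.552 and 0.740). Tead4 and Vgll3 did not pass the filter.

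All 21 Hippo kinases and upstream regulators were tested, and 2 were lower in Smo-KO at an unadjusted p under 0.05 (7.15% of all genes were), with 5 log2 differences above and 16 below 0 (median −0.06). Wwc1, the scaffold protein KIBRA that promotes LATS activation, was at 119, 115, 101 and 100 CPM in control livers and at 85.6, 94.9, 81.0 and 86.9 CPM in Smo-KO livers. Every Smo-KO liver was below every control liver (log2 difference −0.32, SE 0.09, edgeR adjusted p = 0.176). Fat4, a large cadherin, was at 1.13, 1.57, 1.99 and 2.18 CPM in control and 1.03, 0.873, 1.10 and 1.28 CPM in Smo-KO livers, with 1 control liver inside the Smo-KO range (log2 difference −0.69, SE 0.29, adjusted p = 0.319 by edgeR). Taok3, a kinase upstream of MST, was at −0.23 (SE 0.11, edgeR adjusted p = 0.364). The count of 2 was 1 without control mouse 3 or Smo-KO mouse 3 and with at least 10 reads in every liver, and 4 without control mouse 1 and with no filter on low counts. Over all genes the count also fell without Smo-KO mouse 3 and rose without control mouse 1.

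A further 13 of 15 YAP and TAZ target genes were tested, with a median log2 difference of −0.03. Of the 13, 0 had an unadjusted p under 0.05, beside 13.8% of all genes. The groups did not overlap in 1 of them (F3), beside 7.37% of all genes. Tgfb2, a TGF-beta ligand, was at 0.58 (SE 0.29), the ecto-nucleotidase gene Nt5e at −0.34 (SE 0.18) and Asap1 at −0.20 (SE 0.10), with edgeR adjusted p of 0.399, 0.420 and 0.399. Tgfb2 was at 0.24 without Smo-KO mouse 2. Igfbp3, which encodes a binding protein for insulin-like growth factors and was the most abundant, was at −0.41 (SE 0.30, edgeR adjusted p = 0.568). The count of 0 became 3 without Smo-KO mouse 1, where 2332 of all 13067 genes passed, and 2 without control mouse 1 (1946 of 13093). It was 1 without control mouse 4 (1583 of 13064) or Smo-KO mouse 4 (1334 of 13088). Foxf2 had 0 reads in all livers.

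Among the remaining CCN genes, Ccn4 and Ccn5 were tested, and their differences had opposite signs. Ccn5, which unlike Ccn1 lacks the C-terminal domain of the family, was at 3.63, 19.4, 16.99 and 15.2 CPM in control and 17.6, 39.05, 61.3 and 16.8 CPM in Smo-KO livers. Control mouse 1 was low and Smo-KO mice 2 and 3 were high, and the ranges overlapped (log2 difference 1.27, SE 0.45, edgeR adjusted p = 0.249). Without Smo-KO mouse 3 the difference was 0.82. Ccn4 was at 3.52, 4.30, 2.68 and 4.85 CPM in control and 2.99, 2.62, 1.22 and 2.35 CPM in Smo-KO livers (log2 difference −0.73, SE 0.28, edgeR adjusted p = 0.281). Both had an unadjusted p under 0.05 (13.8% of all genes did), which neither had without Smo-KO mouse 3 and 1 of them had without control mouse 2 or 4. The count over all genes was lower without each of these mice too. Ccn3 and Ccn6 did not pass the filter.

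Receptors that bind CCN1 were tested for 10 of 11 genes, with a median log2 difference of −0.06. Itga5, a chain of the fibronectin receptor, was at −0.27 (SE 0.12, edgeR adjusted p = 0.346) and was the 1 gene of the 10 with an unadjusted p under 0.05, beside 13.8% of all genes. The count was 0 without any 1 of control mice 1, 2 and 3 and Smo-KO mice 2, 3 and 4, and also 0 with DESeq2 and with library totals in place of TMM scaling. Itgb3 (−0.36, SE 0.24), Itgam (0.22, SE 0.18) and the most abundant, the endocytic receptor gene Lrp1 (0.07, SE 0.09), had edgeR adjusted p of 0.531, 0.616 and 0.769. The ligands and related kinases of AXL were all tested, and 0 of 4 had an unadjusted p under 0.05, beside 13.8% of all genes. Pros1 (0.17, SE 0.13) and Gas6 (−0.05, SE 0.12), the ligands, and the kinase gene Mertk (0.04, SE 0.10) had edgeR adjusted p of 0.577, 0.897 and 0.901. The sign for Gas6 turned without control mouse 2 or Smo-KO mouse 4, and that for Mertk without Smo-KO mouse 1. Without Smo-KO mouse 1, 1 of these 4 genes passed an unadjusted p of 0.05, and the count over all genes rose as well.

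Immediate early genes, which cells transcribe within minutes of a growth factor or a stress, were included because Ccn1 was first described as one of them. Of 25, 24 were tested, and 7 had an unadjusted p under 0.05 (13.8% of all genes did), with 5 lower in Smo-KO (Zfp36, Fos, Jun, Jund and Klf2) and 2 higher (Maff and Klf10). The median log2 difference was −0.19, with 7 above and 17 below 0. Zfp36, which encodes an mRNA decay factor, was at 199, 248, 85.8 and 90.01 CPM in control and 96.1, 80.5, 68.7 and 74.4 CPM in Smo-KO livers. As for Ccn1, control mice 1 and 2 were high and mice 3 and 4 were low (log2 difference −0.96, SE 0.29, edgeR adjusted p = 0.199). Fos, a subunit of AP-1, was at 21.8, 55.5, 12.02 and 9.30 CPM in control and 10.2, 10.7, 10.2 and 8.64 CPM in Smo-KO livers, again with control mice 1 and 2 as the high ones (log2 difference −1.305, SE 0.45, edgeR adjusted p = 0.241). Both differences leaned on control mouse 2, without which that of Fos was −0.52 and that of Zfp36 −0.64.

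Maff, a small MAF transcription factor, ran the other way, at 19.96, 18.03, 12.1 and 15.0 CPM in control and 23.5, 28.8, 24.3 and 16.4 CPM in Smo-KO livers (log2 difference 0.52, SE 0.18, edgeR adjusted p = 0.247). Jund, the most abundant, was at 729, 598, 525 and 472 CPM in control and 523, 484, 421 and 387 CPM in Smo-KO livers (−0.36, SE 0.14, edgeR adjusted p = 0.284). In both genes the groups overlapped. The count of 7 was 4 without control mouse 2 or without Smo-KO mouse 4, and 10 without Smo-KO mouse 1. Over all genes the count likewise fell without control mouse 2 or Smo-KO mouse 4 and rose without Smo-KO mouse 1.

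SRF and actin genes share with YAP a response to tension in the cytoskeleton. All 19 were tested, with 6 log2 differences above and 13 below 0 (median −0.13), and 1 had an unadjusted p under 0.05, beside 13.8% of all genes. This was Actg1, cytoplasmic gamma-actin, at −0.28 (SE 0.12, edgeR adjusted p = 0.331). Actb, the most abundant, was at 1662, 1648, 1644 and 1527 CPM in control and 1496, 1355, 1418 and 1500 CPM in Smo-KO livers, with no overlap (−0.17, SE 0.08, edgeR adjusted p = 0.390). Actn4 (−0.18, SE 0.09) and Myh9 (−0.23, SE 0.11) had adjusted p of 0.384 and 0.388 by edgeR. The count of 1 was 0 without control mouse 3 or Smo-KO mouse 3 or 4, 2 without Smo-KO mouse 2, with DESeq2 and with library totals in place of TMM scaling, 3 without control mouse 1 and 4 without Smo-KO mouse 1. Over all genes the count also fell without Smo-KO mouse 3 or 4 and rose without control mouse 1 or Smo-KO mouse 1.

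Since Ccn1 split the livers within each group, the genes sharing that split were sought. Likeness was the Pearson r of log2 CPM with Ccn1 over the 8 livers after the mean of each group was taken out, so that the difference between groups played no part. As a distance from the group mean in log2 CPM, Ccn1 lay at 0.498 and 0.425 in control mice 1 and 2 and at −0.436 and −0.487 in mice 3 and 4. In Smo-KO livers it lay at 0.395 and 0.216 in mice 1 and 2 and at −0.238 and −0.373 in mice 3 and 4. Ccn1 thus fell from mouse 1 to mouse 4 in both groups. Each r rests largely on which 2 mice of a group were high, and these had the same numbers in both groups. No source ties the numbers to a shared litter or day, and the cause of the split was not tested. Each r is given as a description.

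The 5 genes most like Ccn1 among 12976 were Rrp9 (r = 0.992, rho = 0.905), Hectd4 (0.988, 0.952), Polr2a (0.986, 0.929), Foxk1 (0.975, 0.810) and Harbi1 (0.974, 0.952). Rrp9 takes part in the maturation of ribosomal RNA, Polr2a encodes the largest subunit of RNA polymerase II, and Foxk1 encodes a forkhead transcription factor. None of them is in any of the lists. Rrp9 did not share the difference of Ccn1 between the groups, at 22.7 ± 3.72 CPM in control and 22.7 ± 2.85 CPM in Smo-KO livers (SD, n = 4 each). Without the 2 livers in which Ccn1 lay farthest from its median, control mice 1 and 4, r was 0.993, 0.985, 0.998, 0.980 and 0.977 in these genes, which were picked for a high r.

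The other 9 genes of the YAP set were mixed in this respect. Amotl2 (r = 0.766) was the single one above 0.5, which is 11.1% of the 9, beside 14.8% of all genes. Ccn2 (0.479), Ankrd1 (0.385), Amotl1 (0.308), Yap1 (0.270) and Tead1 (0.147) lay between 0 and 0.5. Ajuba (−0.182), Lats2 (−0.301) and Axl (−0.484) ran the other way, and the median of the 9 was 0.270. This count rested on the livers used. Without control mice 1 and 4, 5 of the 9 were above 0.5, beside 17.5% of all genes, and the median was 0.525. Amotl2 was then at 0.860, Ccn2 at 0.789, Ankrd1 at 0.769, Tead1 at 0.542 and Yap1 at 0.525, while Amotl1 (0.241), Ajuba (0.155), Lats2 (−0.132) and Axl (−0.318) were lower. In all 8 livers, 2 of 13 other YAP and TAZ targets were above 0.5 (Arhgef17 at 0.790 and Nuak2 at 0.730), 4 being so without control mice 1 and 4, and of 21 Hippo regulators 4 were (Nf2 at 0.805, Wwc1 at 0.800, Taok2 at 0.720 and Lats1 at 0.622), while Fat4 was at −0.866.

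Most immediate early genes lay on the same side as Ccn1. The r was above 0 in 22 of 24 and above 0.5 in 12 of 24, beside 14.8% of all genes, with a median of 0.467. Jund (0.933), Zfp36 (0.902), Junb (0.897) and Dusp1 (0.863) led, followed by Fosl2 (0.842), Btg2 (0.835), Nr4a1 (0.777), Maff (0.772), Fos (0.736), Jun (0.730), Ier2 (0.670) and Egr1 (0.553). Klf2 was at −0.269. Without control mice 1 and 4, 13 of the 24 were above 0.5 and the median was 0.581. Maff therefore varied with Ccn1 within the groups while its level was higher in Smo-KO livers and that of Ccn1 was lower.

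**Figure D4:**
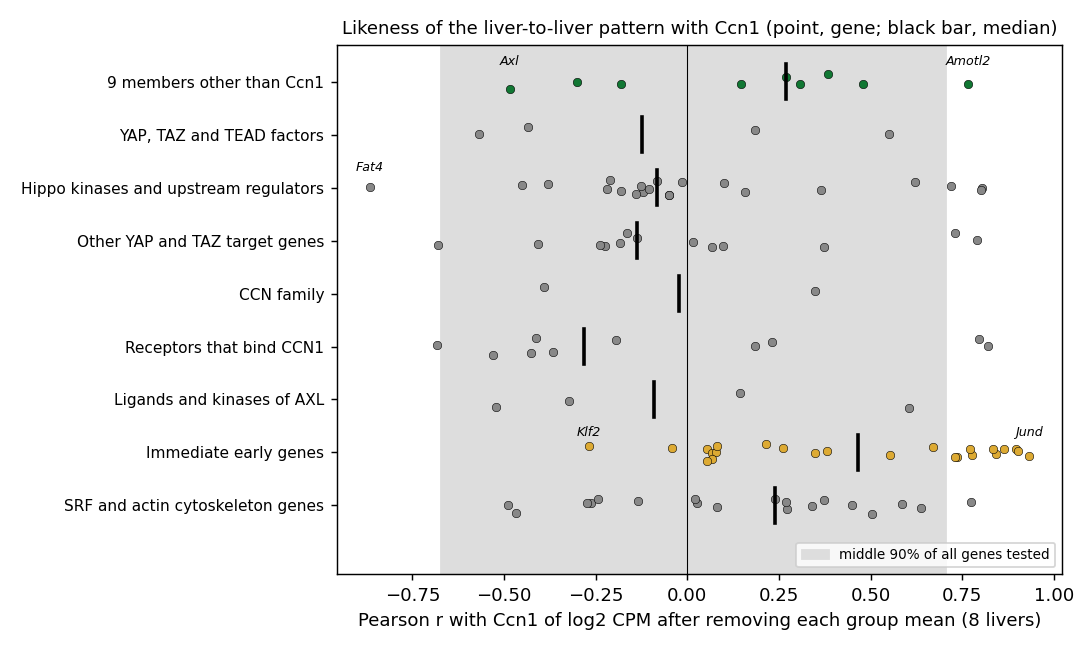
Pearson r with Ccn1 of log2 CPM after removing each group mean (8 livers), 1 point per gene and 1 row per list, with the median as a bar and the middle 90% of all genes, from −0.671 to 0.706, shaded. Immediate early genes gather on the right (median 0.467), and the 9 other genes of the YAP set run from Axl at −0.484 to Amotl2 at 0.766.

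Likeness with Ccn1 also moved with base composition. With genes split into 4 equal bins from low to high GC content, the median r was −0.267, −0.0767, 0.104 and 0.261, and the share above 0.5 was 3.93%, 10.1%, 17.5% and 28.0%. The slope of log2 CPM on GC content, per SD of GC content, was 0.0927 in control mouse 1 and 0.0777 in Smo-KO mouse 1. In the other livers it lay between −0.0484 and 0.00245. Ccn1 was highest of each group in mouse 1, and a link with the slope was not tested. After the trend of each liver on GC content and length was removed, 11.3% of all genes were above 0.5, and so were 12 of the 24 immediate early genes, all 12 being those above 0.5 before. In the YAP set, 3 of 9 were then above 0.5, namely Amotl2 at 0.605, Yap1 at 0.554 and Ccn2 at 0.535, and Axl was at −0.686. Of the 21 Hippo regulators 3 were then above 0.5, and 2 of these had been so before. Wwc1 was at 0.317, and Nf2 at 0.596. Of 13 other YAP and TAZ targets 2 were above 0.5, both being those above 0.5 before. Among the 5 genes nearest to Ccn1, the r of Hectd4 was 0.663 after this step, and that of the other 4 lay between 0.912 and 0.948.

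Markers of the cell types in liver were summed in each sample, since Ccn1, Axl and several other targets are expressed outside hepatocytes. Hepatocyte markers, led by albumin (Alb), came to 28112 ± 2198 CPM in control and 26803 ± 868 CPM in Smo-KO livers (SD, n = 4 each), and were thus abundant in every liver. Stellate cell and fibroblast markers (most abundant gene Col3a1) came to 1262 ± 88.7 and 1178 ± 173 CPM, and macrophage markers (Clec4f) to 916 ± 94.4 and 932 ± 112 CPM. Endothelial markers (Clec4g) came to 199 ± 19.6 and 167 ± 52.1 CPM, smooth muscle markers (Smtn) to 20.7 ± 1.42 and 19.5 ± 2.37 CPM, and cholangiocyte markers (Spp1) to 169 ± 41.3 and 197 ± 47.1 CPM. The last 2 sums are mostly the level of 1 gene, since Smtn alone was at 18.1 and 16.5 CPM and Spp1 at 126 and 154 CPM. In these 6 lists the ranges of the sums overlapped, and no marker in any list was at 0 in all livers. Single markers did not all follow their sum. Trem2 (macrophage) was above every control in all Smo-KO livers (log2 difference 0.75, SE 0.13, edgeR adjusted p = 0.0957). Cps1 (hepatocyte) was below every control (−0.33, SE 0.10, edgeR adjusted p = 0.218). Col1a1 (−0.36, SE 0.13) and Pecam1 (−0.50, SE 0.20) were lower with overlap (edgeR adjusted p = 0.248 and 0.292). Each was the 1 tested gene of its list with an unadjusted p under 0.05, beside 13.8% of all genes.

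T and NK lymphocyte markers (Nkg7) were at 47.5, 43.8, 38.9 and 53.5 CPM in control livers and at 21.2, 19.2, 32.6 and 31.3 CPM in Smo-KO livers. Every Smo-KO liver was below every control liver, and all 5 of the tested genes (of 7 listed) were lower at an unadjusted p under 0.05, beside 7.15% of all genes. The edgeR adjusted p of these 5 genes lay between 0.116 and 0.292, so that none passed the adjusted threshold. Their r with Ccn1 within the groups was above 0 in 0 of 5. Mesothelial markers (Wt1) stood at 8.05, 9.12, 1.99 and 3.46 CPM in control and 4.85, 7.42, 6.46 and 3.20 CPM in Smo-KO livers, and both of their tested genes had an r with Ccn1 above 0.5. Of 6 cholangiocyte markers 4 did so too, of 8 hepatocyte markers 1, and of the stellate, endothelial, macrophage and smooth muscle markers 0, beside 14.8% of all genes. Some had few reads per liver (Krt7 10 to 27, Wt1 5 to 30, Gpm6a 9 to 19), and Msln, Upk3b and Lrrn4 did not pass the filter. Without control mice 1 and 4, 6 of 6 cholangiocyte and 2 of 2 mesothelial markers were above 0.5, beside 17.5% of all genes. With GC and length trends removed, 4 of 6 and 2 of 2 were, beside 11.3%. The part of these cell types in the level of Ccn1 was not tested.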

How the data were processed

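The authors deposited whole-number read counts per gene symbol for each of the 8 livers, and these counts were the starting point. According to the submitters' processing notes, GRCm38, fastp, STAR 2.7.5 and featureCounts 2.0.1 were used, whereas the closing entries of each count list are named as in htseq-count output. The annotation and strand setting are not given in the sources used here. Those entries, which name no gene, were not used in scaling or testing (reads on no feature were 7.56% to 9.68% of a library, ambiguous reads 2.45% to 2.61%). The labels give no batch, and do not say whether the mice shared litters or cages, so p-values measure the spread between these 8 livers. A chi-square of the counts of 2 livers of a group was 8.14 to 18.4 per degree of freedom, so that no library repeated another of its group. Libraries of different groups were not compared in this way.

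Genes were filtered (filterByExpr), scaled (TMM) and tested with edgeR 4.0.16 (quasi-likelihood F test with 1 term for the group, p-values adjusted over 12977 genes after Benjamini and Hochberg) in R 4.3.3. The log2 CPM for spread and likeness used a prior count of 2. The procedure was tested on simulated data. Single values were compared by exact permutation over 70 assignments. The floor of 3 reads covers counting error only. The SE of a log2 difference comes from the edgeR fit and includes the spread between livers, and each SD is that between the livers of a group. Exon lengths, overlaps and GC content came from GENCODE M21, and promoters from RefSeq (GRCm38.p6).

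The 10 genes and all lists were chosen with earlier results of these data known. The text names these 10 and Smo, the 3 genes of each pathway list with the smallest p and its most abundant gene, the most abundant marker of each cell type, and the 5 genes most like Ccn1. Single genes counted or listed beyond this (such as F3, Klf2, Klf10 and Jun), those named for their likeness with Ccn1 in a list, and the pair Ccn2 and Ankrd1 were named after their values were seen. Alternatives were other size factors, other filters, DESeq2 1.42.0, the replicate number as a block, a prior count of 0.5 and each liver left out. Removal of GC and length trends, and likeness counts without the 2 livers farthest in Ccn1, were chosen after seeing the data. Figures were drawn with matplotlib 3.10.9.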

Additional observations from a re-analysis of the deposited data

Results flagged for a closer look

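In 104 sets of 4 livers examined for a liver far from the other 3, 2 were found, where chance gives about 1 in 20, or 5.2. Actb in control mouse 4 was at 1527 CPM, below 1644 to 1662 CPM in the other control livers. The library of Smo-KO mouse 3 held 8203299 reads on genes, below 9367795 to 9543675 in the other Smo-KO livers.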

How the results depend on the processing

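With edgeR 0 of 12977 genes had an adjusted p under 0.05 (1797 at an unadjusted p), and this held with RLE size factors, with library totals and with at least 10 reads in every liver. The count was 61 with no filter on low counts and 163 with DESeq2, and ran from 0 to 78 when 1 liver was left out (78 without Smo-KO mouse 1, 5 without control mouse 1, 4 without Smo-KO mouse 3). Smo was at −0.88 (adjusted p = 0.0385) with no filter and −0.87 (0.00613) with DESeq2, and between −0.997 and −0.81 with 1 liver left out, its adjusted p lying between 0.00613 and 0.219 over all settings. The 13 pathway genes with an unadjusted p under 0.05 were 7 to 24 with 1 liver left out, and the 1797 over all genes were 1244 to 2332.

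With the replicate number as a block, 8 genes had an adjusted p under 0.05 and 21 pathway genes an unadjusted p under 0.05 (2 of the other YAP and TAZ targets and 5 of the SRF and actin genes among them). The deviations of same-numbered livers from their group means correlated at r = 0.104, 0.187, 0.0611 and 0.113 for numbers 1 to 4, not all above 0.1, and no source ties the numbers to a shared litter or day, so the livers were taken as unpaired.

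Of the 10 genes, Amotl2 was between −0.46 and −0.22, Yap1 between −0.20 and −0.10, Tead1 between −0.28 and −0.08 and Ankrd1 between −0.61 and −0.00 with 1 liver left out. The sign of Ccn2, Lats2 and Axl turned in 3 of 14 alternatives each, that of Ajuba in 2 and that of Amotl1 in 1. With 1 liver left out Wwtr1 ran from −0.067 (without control mouse 1) to 0.078, and was at −0.02 without Smo-KO mouse 2. Gas6 ran from −0.13 to 0.031 (without control mouse 2), and was at 0.03 without Smo-KO mouse 4. Mertk ran from −0.026 (without Smo-KO mouse 1) to 0.090. The causes were not tested. For the 27 genes named from the pathway lists, 372 values under the alternatives kept their direction and side of the threshold, and the other 5, those of Wwtr1, Gas6 and Mertk, turned. The median log2 difference of all genes stayed between −0.01 and 0.01. Ankrd1, with 6 to 20 reads, has no value under the filter of 10 reads, and its depth limits what could be seen.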
